A study of Mus musculus with 16 samples.

Results

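Cholesterol is built from acetyl-CoA by a chain of enzymes, and the RNA levels of part of that chain and of its regulator Srebf2 were followed in mouse liver. The list held 9 genes. It comprised Pmvk, Mvd and Idi1 of the mevalonate arm, Fdft1, Sqle, Lss, Nsdhl and Hsd17b7 of the sterol arm, and Srebf2. A gene was kept where an annotated probe lies in the deposited values, which gave 8 of the 19057 genes with a probe, and Fdft1 was not analysed here. Livers of 3 male wild-type (WT), 5 female WT, 3 male knockout (KO) and 5 female KO mice were measured, with 1 Illumina mouse Ref-6 v2 bead array each. All mice were 2 months old. The KO label reads hs-RXRa-Dex4-/-, a deletion in the retinoid X receptor alpha gene (Rxra) in hepatocytes. The transgene that drives the deletion is not given in the sources used here, and the receptor was not measured by cell type. No treatment is given for any of the 16 mice, and nothing in the labels says whether they were littermates.

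In the mevalonate arm, mevalonate is phosphorylated, with Pmvk as the second kinase, decarboxylated by Mvd to isopentenyl diphosphate and isomerized by Idi1. The units so made are joined to squalene, the first product committed to sterols. In the sterol arm Sqle oxidizes squalene, Lss closes the ring to lanosterol, and Nsdhl and Hsd17b7 help to remove methyl groups on the way to cholesterol. Srebf2 encodes SREBP2, a membrane-bound transcription factor that is released when sterols are scarce and that activates genes of both arms. SREBP2 is known to bind sterol regulatory elements with NF-Y and Sp1 as partners, whereas RXRα binds DNA as a heterodimer with other nuclear receptors, several of which sense oxysterols, bile acids and fatty acids.

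The NF-Y motif was found before the start of the 7 members with a promoter entry, though not before each of their start sites. RefSeq promoter entries (GRCm38.p6) were found for 7 members, with 8 start sites, since Pmvk has 2. Within the 250 bases before the start, CCAAT on either strand was present in 7 of the 8 promoters, and in at least 1 promoter of each of the 7 genes, compared with 33.8% of all 32851 promoters in the table. GGGCGG, the Sp1 motif, was present in 6 of the 8 compared with 32.7%, and Pmvk was the gene without it. CACCCCAC (in 2.58% of all promoters), TCACNCCAC (1.05%) and AGGTCA, the nuclear receptor half-site (14.0%), were found in 0 of the 8. The 2 sterol element spellings cover few of the variants that SREBP2 can bind. The 140 bases that end just before the start are printed for 4 members: Idi1 and Nsdhl, which rose in KO livers of both sexes, Mvd, which rose in males, and Srebf2 itself. Bases run 5′ to 3′ on the gene's strand, and capitals mark CCAAT or its complement ATTGG, and GGGCGG or its complement CCGCCC.
Idi1 (chr13:8885466-8885605, plus strand): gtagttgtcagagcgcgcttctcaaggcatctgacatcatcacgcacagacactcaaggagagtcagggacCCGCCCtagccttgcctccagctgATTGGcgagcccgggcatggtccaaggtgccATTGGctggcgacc
Mvd (chr8:122443423-122443562, minus strand): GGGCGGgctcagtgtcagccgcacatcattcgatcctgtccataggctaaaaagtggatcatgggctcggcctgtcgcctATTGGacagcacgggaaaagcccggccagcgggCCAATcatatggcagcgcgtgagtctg
Nsdhl (chrX:72918381-72918520, plus strand): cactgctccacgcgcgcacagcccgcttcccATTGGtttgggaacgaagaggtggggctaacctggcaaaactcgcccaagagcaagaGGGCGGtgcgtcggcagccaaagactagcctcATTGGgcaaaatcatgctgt
Srebf2 (chr15:82147129-82147268, plus strand): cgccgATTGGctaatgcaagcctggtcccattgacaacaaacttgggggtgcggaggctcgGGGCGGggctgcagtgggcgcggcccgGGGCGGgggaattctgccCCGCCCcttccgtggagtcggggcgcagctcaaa
Counted back from the start, the CCAAT letters of Idi1 begin at -45 and -14, those of Mvd at -60 and -27, those of Nsdhl at -109 and -20, and those of Srebf2 at -135. A match of letters is a description and not a bound site.

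Each value is the linear intensity of a probe, from which background had been subtracted and which had been quantile normalized before deposit. A log2 level is log2 of the intensity plus 16, and a probe counted as detected above an intensity of 20.9 to 21, depending on the array. For the gene lists below, a gene counts as measured where a probe of it was detected on at least 3 arrays. All 8 members were detected on all 16 arrays. Groups were compared by limma, with p adjusted over 9906 genes by the Benjamini-Hochberg method and 0.05 as the threshold. Xist was detected on all 10 female and on 0 of 6 male arrays, as the gender labels state. The Rxra probe read 47.7 to 78.4 in male WT and 62.1 to 109 in male KO livers. It may lie outside the deleted part, so it does not check the genotype. Hepatocyte markers (8 of 9 measured) summed to 84581 to 114700 on every array. The arrays with the lowest mean correlation to their group were female WT 4 (0.952) and female WT 2 (0.961). Female WT 4 had a sum of 7 fasting-induced genes of 25640 against 4539 to 7145 in the other female WT livers. Its sum of 9 clock genes was 8520 against 2021 to 3772. Female WT 2 had a Kupffer cell sum of 9628 against 3196 to 5363. Among the female KO livers, female KO 10 had a fasting sum of 18587 against 5012 to 8365, and a clock sum of 9455 against 2542 to 4822. Results that rest on female WT 4 or female WT 2 are given without them as well.

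All members had their lowest group mean in male WT livers, and the 7 enzymes were higher in KO than in WT livers of both sexes by group mean. The plot of levels by array shows 2 shapes. For Pmvk, Mvd, Sqle, Lss and Srebf2, the 3 male WT arrays lay below all 13 other arrays, as was the case for 1.49% of the 9906 genes. For Idi1, all 8 WT arrays lay below all 8 KO arrays (0.444% of the genes). Nsdhl came close to the shape of Idi1, and Hsd17b7 stood between the 2. These shapes were chosen after the values had been seen and carry no test.

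**Figure D1:**
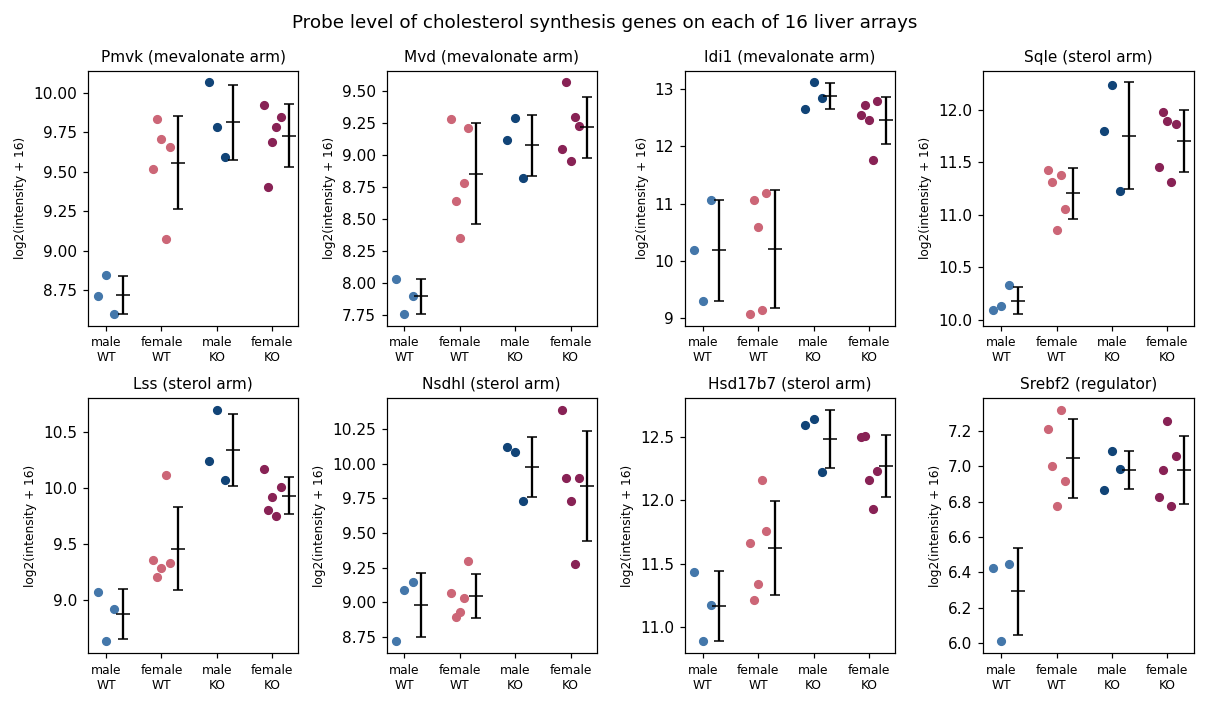
Log2 level (log2 of intensity + 16) of the 8 members on each array, by group, with 3 arrays in each male group and 5 in each female group; bars give the mean ± SD and each panel has its own axis range. The 3 male WT arrays are the lowest for Pmvk, Mvd, Sqle, Lss and Srebf2, and for Idi1 the WT arrays of both sexes lie below all KO arrays.

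In KO males the 7 listed enzymes, 3 of the mevalonate arm and 4 of the sterol arm, had higher RNA than in WT males. In males 7 of the 8 members rose, by 1.99-fold for Nsdhl to 6.41-fold for Idi1, and Srebf2, with 0.69 on the log2 scale, did not pass. Of all genes 0.878% rose in this comparison (1.5% passed in either direction). The members were chosen with earlier results of these data known, so their share was not tested against that of all genes. The male KO arrays lay above all male WT arrays for 8 of 8 members, compared with 11.9% of all genes. In females 2 of the 8 rose, Idi1 and Nsdhl, compared with 1.29% of all genes that rose and 2.37% that passed in either direction. Only Idi1 had KO arrays above all WT arrays in females, as did 2.14% of all genes. The median log2 difference of the members was 1.25 in males and 0.48 in females, and the medians of all genes were 0.02 and 0.00411. The count in males was 3 without male WT 2 (Pmvk, Sqle and Lss), and 4 without male WT 3, male KO 4 or male KO 5. The number of all genes that passed fell as well, from 149 to 74, 79, 80 and 86 in the same order. The count in females was 1 (Idi1) without any 1 of 6 arrays, namely female WT 1, 2 or 3 or female KO 6, 7 or 10. It was 4 without female WT 4, when Lss and Hsd17b7 joined Idi1 and Nsdhl. Over all genes 235 passed in females with all arrays, 160 to 209 without any 1 of those 6 arrays, and 201 without female WT 4.

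Idi1 (NCBI gene 319554, chromosome 13), the isomerase that makes dimethylallyl diphosphate, had the widest change of the members. Its intensities were 1153, 619 and 2136 in male WT and 6435, 8846 and 7348 in male KO livers. In female WT livers they were 523, 2130, 1528, 553 and 2320, and in female KO livers 5988, 6717, 5577, 3466 and 7084. The WT livers of each sex varied by more than 3-fold among themselves, and no WT liver reached the lowest KO liver, female KO 9. The log2 difference KO minus WT was 2.68 in males (standard error 0.536, adjusted p = 0.0149) and 2.24 in females (standard error 0.415, adjusted p = 0.00758). The fold changes were 6.41 (95% confidence interval 2.92 to 14.1) and 4.72 (2.57 to 8.69). Counted from the highest, these were the 10th and the 7th of 9906 differences. The call in males was lost with male WT 2 left out (adjusted p = 0.0982), and likewise with male KO 5 (0.0785) or male KO 6 (0.0509). In females it passed in each of the 26 alternatives tried. The sexes did not differ detectably in either genotype. The male minus female difference was -0.02 in WT (95% confidence interval -1.04 to 0.99) and 0.42 in KO livers (-0.60 to 1.43).

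Pmvk (NCBI gene 68603, chromosome 3), phosphomevalonate kinase, moved in males. Its intensities were 404, 444 and 373 in male WT and 1057, 865 and 755 in male KO livers. Female WT livers had 716, 899, 819, 524 and 792, and female KO livers 954, 662, 809, 867 and 906. The males did not overlap, and the females of both genotypes shared most of their range. KO livers exceeded WT livers by 1.09 in males (standard error 0.202, adjusted p = 0.00914) and by 0.17 in females (adjusted p = 0.768, 95% confidence interval -0.16 to 0.50). Male minus female was -0.84 in WT livers (standard error 0.181, adjusted p = 0.0146), while KO males and females differed by 0.08 (adjusted p = 0.88). The male KO call was lost with male WT 3 left out (adjusted p = 0.0533) or male KO 4 left out (0.0596).

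Mvd (NCBI gene 192156, chromosome 8), mevalonate diphosphate decarboxylase, was likewise lowest in the male WT livers. Intensities were 246, 201 and 223 in male WT and 538, 609 and 436 in male KO livers. They were 607, 383, 312, 424 and 577 in female WT and 512, 741, 479, 611 and 583 in female KO livers. Each male WT value was under the lowest female WT value. The KO minus WT difference was 1.18 in males (standard error 0.234, adjusted p = 0.0148) and 0.36 in females (standard error 0.181, adjusted p = 0.456). Male minus female was -0.96 in WT (standard error 0.209, adjusted p = 0.0159) and -0.14 in KO livers (adjusted p = 0.815). The male KO call was lost without male WT 2, male WT 3, male KO 4 or male KO 5, with adjusted p of 0.0607 to 0.0865.

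Sqle (NCBI gene 20775, chromosome 15), squalene epoxidase and a control point of the sterol arm, had the smallest adjusted p of the members in males. Male WT livers had intensities of 1074, 1103 and 1270 and male KO livers 3559, 4813 and 2381. Female WT livers had 2734, 2528, 1843, 2657 and 2110 and female KO livers 2792, 4017, 3799, 2535 and 3707. Male WT livers stood near a narrow low level, and male KO livers lay within or above the range of the female WT livers. KO minus WT was 1.57 in males (standard error 0.246, adjusted p = 0.00275), which passed in each of the 27 alternatives. In females it was 0.49 (standard error 0.191, adjusted p = 0.263, 95% confidence interval 0.09 to 0.90). A second detected Sqle probe, with a mean intensity of 383 against 2683, gave 1.70 in males (adjusted p = 0.00397) and 0.90 in females, where it passed (adjusted p = 0.0394). For WT males minus WT females the first probe gave -1.03 (standard error 0.22, adjusted p = 0.0145) and the second -0.81, which did not pass (adjusted p = 0.0905).

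Lss (NCBI gene 16987, chromosome 10), lanosterol synthase, had intensities of 522, 381 and 471 in male WT and 1196, 1646 and 1062 in male KO livers. In females they were 642, 575, 610, 1094 and 630 in WT and 1133, 881, 956, 848 and 1013 in KO livers. A single female WT liver, female WT 4, stood within the KO range, and the 4 others were below all KO livers. The male difference was 1.46 (standard error 0.232, adjusted p = 0.00287) and passed in each of the 26 alternatives. The female difference was 0.47 (standard error 0.18, adjusted p = 0.258) with all arrays and 0.63 (adjusted p = 0.0363) without female WT 4. Male minus female in WT was -0.58 (adjusted p = 0.146), with no overlap of the groups, and 0.41 in KO livers (adjusted p = 0.40).

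Nsdhl (NCBI gene 18194, chromosome X), the sterol 4-alpha-carboxylate dehydrogenase, did not differ detectably between WT sexes. Intensities were 405, 527 and 550 in male WT and 520, 458, 471, 507 and 613 in female WT livers. They were 1096, 1068 and 834 in male KO and 1329, 940, 835, 604 and 940 in female KO livers. Female KO 9 was the only KO liver within the WT range. KO minus WT was 1.00 in males (standard error 0.23, adjusted p = 0.0385) and 0.80 in females (standard error 0.178, adjusted p = 0.0255). Both calls rest close to the threshold by this probe. The male call was lost without any 1 of 11 arrays and the female call without any 1 of 6, with an adjusted p of at most 0.153. Nsdhl has 4 probes on the array, all detected on all 16 arrays. Fitted alone over all probes, each of the 4 rose in males, by 1.00 to 1.23, and 3 of the 4 rose in females, the fourth having 0.69 (adjusted p = 0.0502). Male minus female in WT was -0.06 (95% confidence interval -0.50 to 0.38).

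Hsd17b7 (NCBI gene 15490, chromosome 1), the 3-ketosteroid reductase of sterol demethylation, had 2757, 1878 and 2301 in male WT and 6160, 6393 and 4775 in male KO livers. Female WT livers had intensities of 3239, 2360, 2576, 4553 and 3444, and female KO livers 5788, 5811, 4568, 3888 and 4806. As for Lss, female WT 4 was the highest WT liver. KO minus WT was 1.32 in males (standard error 0.239, adjusted p = 0.00806) and 0.64 in females (standard error 0.185, adjusted p = 0.0932), or 0.77 in females without female WT 4 (adjusted p = 0.0313). The male call was lost without male WT 2 (adjusted p = 0.0549). A dim second probe, detected on 7 arrays, gave 1.23 in males (adjusted p = 0.0708). Male minus female was -0.46 in WT (adjusted p = 0.278) and 0.22 in KO livers (adjusted p = 0.698).

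Srebf2 (NCBI gene 20788, chromosome 15) was the dimmest member by probe intensity, which does not rank it among the genes, since probes differ in their response. Male WT livers had 69.8, 48.4 and 71.1 and male KO livers 101, 120 and 111. Female WT livers had intensities of 132, 112, 93.4, 144 and 105, and female KO livers 97.3, 110, 137, 93.4 and 117. Only the male WT livers stood apart. Male minus female in WT was -0.75 (standard error 0.165, adjusted p = 0.0164), KO minus WT in males 0.69 (standard error 0.185, adjusted p = 0.0821), and KO minus WT in females -0.07 (95% confidence interval -0.37 to 0.24). KO males and KO females differed by 0.001 (95% confidence interval -0.35 to 0.35). Another detected probe, annotated to a different cDNA and with a mean intensity of 53.7 against 104, did not show this order. It gave 0.20 for male minus female in WT (adjusted p = 0.756), 0.09 for KO minus WT in males and 0.25 in females. As the mean over both probes, the sex difference in WT livers did not pass (-0.27, adjusted p = 0.324), so the values of Srebf2 depend on the probe.

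The sex difference of the pathway seen in WT livers was not detectable in KO livers. In WT livers 4 of the 8 members were lower in males, Pmvk, Mvd, Sqle and Srebf2, compared with 2.11% of all genes that were lower and 3.71% that passed in either direction. The male WT arrays lay below all female WT arrays for 5 of the 8, the same 4 and Lss, compared with 5.89% of all genes. By their other detected probes, Sqle (-0.81, adjusted p = 0.0905) and Srebf2 (0.20, adjusted p = 0.756) did not pass. The median difference of the 8 was -0.67. The count was 1 without male WT 2 (Pmvk) and 2 without male WT 3 (Sqle and Srebf2), and it was 2 (Pmvk and Mvd) with female WT 2 and female WT 4 both left out. The number of all genes that passed in either direction fell as well, from 368 to 171, 169 and 284 in the same order. In KO livers 0 of the 8 passed in limma, and 0 had an unadjusted p under 0.05, compared with 2.36% and 14% of all genes, and the median was 0.11. The male minus female differences in KO livers ran from -0.14 (Mvd) to 0.42 (Idi1). The male WT arrays enter both the sex comparison in WT livers and the genotype comparison in males, so a low level of these 3 arrays moves both.

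Whether the genotype difference itself was unequal in the sexes was tested by the interaction, KO minus WT in males less KO minus WT in females. It was above 0 for all 8 members, from 0.20 (Nsdhl) to 1.08 (Sqle), with a median of 0.78 compared with 0.03 over all genes. None of the 8 passed in limma, and 6 had an unadjusted p under 0.05. Of all genes 0.0606% passed and 8.6% had an unadjusted p under 0.05. Pmvk, with 0.92 (standard error 0.255, unadjusted p = 0.00234, adjusted p = 0.381), and Sqle, with 1.08 (standard error 0.312, unadjusted p = 0.0032, adjusted p = 0.428), had the smallest p. With weights given to the arrays, Pmvk passed (adjusted p = 0.0295). For Idi1 (0.44, 95% confidence interval -0.996 to 1.88) and Nsdhl (0.20, -0.42 to 0.81), the genes called in both sexes, the interval spanned 0. A difference between the sexes in the genotype effect was thus not shown for any single member.

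By their means, both arms were higher in KO than in WT livers of both sexes. In males the mean log2 difference KO minus WT was 1.65 over the 3 mevalonate genes and 1.34 over the 4 sterol genes, and in females 0.92 and 0.60. The lead of the mevalonate arm, 0.31 in males and 0.32 in females, came from Idi1. Without it the mevalonate mean was 1.13 in males and 0.27 in females, below the sterol mean by 0.20 and 0.33 on the log2 scale. Male minus female was -0.61 and -0.53 for the arms in WT and 0.12 and 0.20 in KO livers. Relative to the mean of each gene over all 16 arrays, the mevalonate arm ran from -1.27 to 0.11 in WT and from 0.37 to 0.81 in KO livers, with no overlap. The sterol arm ran from -0.89 to 0.10 in WT and from -0.00408 to 0.84 in KO livers, where female KO 9 fell below female WT 4. The 2 arms stood farthest apart in female WT 4, in which the mevalonate arm was at -0.91 and the sterol arm at 0.10. These means carry no test, since the genes were chosen with earlier results of the data known.

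**Figure D2:**
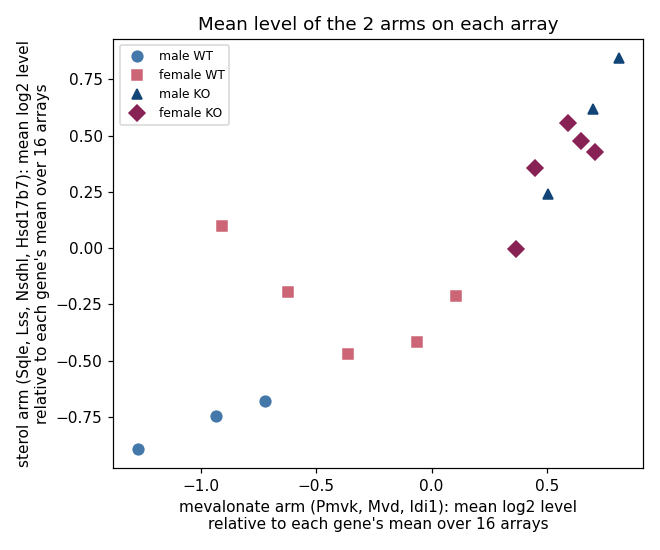
Mean log2 level of the sterol arm (vertical) against the mevalonate arm (horizontal) on each of the 16 arrays, each gene taken relative to its mean over all arrays; symbols give the 4 groups. The male WT arrays are at the lower left, the KO arrays of both sexes at the upper right, and female WT 4, at -0.91 and 0.10, lies away from the other arrays.

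Within groups, 1 of 28 pairs of members varied together past the threshold. Deviations from the group means were correlated over the 16 arrays for all 28 pairs of members, with p from 100000 permutations of arrays within their groups, two-sided, and adjusted over the 28 pairs. Only Lss and Hsd17b7 passed, with Pearson's r = 0.798 (permutation p = 0.00054, adjusted p = 0.0151) and Spearman's rho = 0.756 (permutation p = 0.0016, adjusted p = 0.0448). Without female WT 4 and male KO 5, the 2 arrays farthest from the median of Lss, r was 0.718. This pair did not pass without any 1 of 6 arrays, the 3 male WT arrays and female WT 2, 3 and 4. All 6 pairs of the sterol arm had a positive r, with a median of 0.426. The 3 pairs of the mevalonate arm had -0.21 to 0.297, and the 12 pairs between the arms a median of 0.0628. Srebf2 had r = 0.60 with Sqle (permutation p = 0.00852, adjusted p = 0.119) and -0.597 with Pmvk (permutation p = 0.0239, adjusted p = 0.223), which did not pass. As a description over the same arrays, the genes closest to the mean deviation of the 7 enzymes were Rffl, an E3 ubiquitin ligase (r = 0.894), Specc1l, a cytoskeletal protein (0.867), Xbp1, a transcription factor of the unfolded protein response (0.863), Dync1li2, a dynein chain (0.847), and A930005H10Rik (0.843). These 5 were the highest of all genes tested outside the members.

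**Figure D3:**
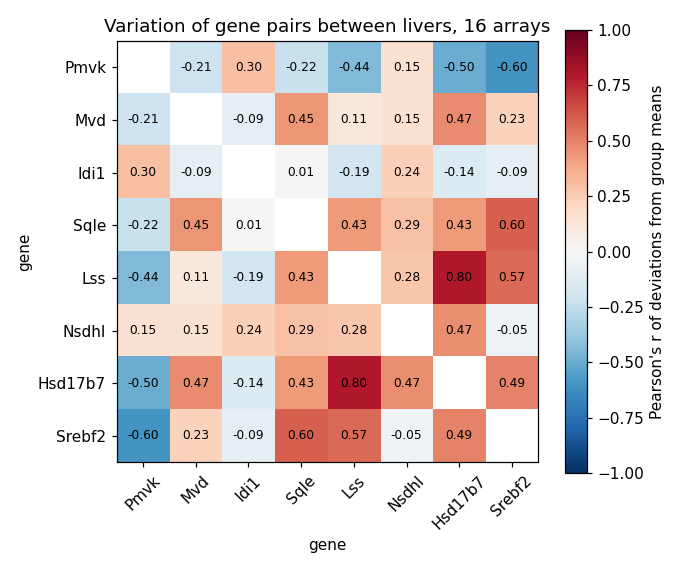
Pearson's r of deviations from group means over 16 arrays for each pair of the 8 members; both axes list the genes in pathway order, and the colour scale runs from -1 to 1. The pair of Lss and Hsd17b7, at 0.80, is the 1 pair that passed after adjustment over the 28 pairs, and Pmvk has negative values with 3 of the 4 sterol arm genes.

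Of 10 other measured enzymes of the pathway, 2 in the mevalonate arm and 8 in the sterol arm, 1 of each arm rose in KO males and 0 in KO females. At an unadjusted p under 0.05, 1 and 5 were higher in males and 2 and 3 in females, where 14.3% and 12.3% of all genes passed in either direction. Fdps, the farnesyl diphosphate synthase, had a mean intensity of 7866 ± 535 (SD, n = 3) in male WT and 14230 ± 3264 (SD, n = 3) in male KO livers, a log2 difference of 0.83 (adjusted p = 0.0203). Msmo1, the sterol methyl oxidase that acts with Nsdhl and Hsd17b7, had 5711 ± 1589 (SD, n = 3) and 13290 ± 1792 (SD, n = 3), a difference of 1.24 (adjusted p = 0.0436). In females Msmo1 had 0.81 (adjusted p = 0.0806) and Fdps 0.37 (adjusted p = 0.231). Cyp51, the lanosterol demethylase, with 1.11 in males (adjusted p = 0.0551), and Dhcr7, the last reductase of 1 branch, with 0.92 (adjusted p = 0.0837), did not pass. Mvk, the kinase before Pmvk, did not pass, and its probe was near background. It was detected on 1 of 3 male WT, 1 of 3 male KO and 1 of 5 female WT arrays. In female KO livers it was detected on 5 of 5 arrays, at 26.5 to 48.7. Its KO minus WT difference was -0.22 in males (adjusted p = 0.764) and 0.66 in females (adjusted p = 0.164). Mvk is thus 1 of the 2 mevalonate enzymes counted in females by the unadjusted p. The median of the 8 other sterol arm enzymes was 0.50 in males and 0.16 in females.

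Of 7 measured genes that hold SREBP in the membrane or process it, 0 passed in KO males and 0 in KO females. Of all genes 1.5% and 2.37% passed. At an unadjusted p under 0.05 it was 0 of the 7 in males and 3 in females, 2 higher and 1 lower. By that rule 14.3% and 12.3% of all genes passed in either direction. Insig1, a retention protein that is itself an SREBP target, had 0.17 in males (adjusted p = 0.776) and -0.51 in females (adjusted p = 0.223). Insig2, the other retention protein, was higher in WT males than in WT females by 1.00 (standard error 0.172, adjusted p = 0.00277), with 9152 ± 1146 (SD, n = 3) against 4583 ± 530 (SD, n = 5). Its male minus female difference was 0.52 in KO livers (adjusted p = 0.161). Of 3 measured SREBP2 targets outside synthesis and 3 genes of the isoprenoid branch, 0 passed in any of the comparisons. At an unadjusted p under 0.05 that was 1 of the 3 targets in either sex for KO minus WT and 0 of the isoprenoid genes.

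SREBP1c, the other SREBP of liver, controls genes of fatty acid synthesis. Of 15 measured genes of that list 0 rose or fell in KO males, with 3 higher and 1 lower at an unadjusted p under 0.05, and 2 fell in KO females. These were Elovl5, a fatty acid elongase (-0.65, adjusted p = 0.0339), and Thrsp, a lipogenic nuclear protein (-1.76, adjusted p = 0.0346). Of all genes 1.5% passed in either direction in males and 2.37% in females. At an unadjusted p under 0.05, 6 of the 15 were lower and 0 higher in KO females. Of all genes 14.3% in males and 12.3% in females had an unadjusted p under 0.05, in either direction. The median of the 15 was 0.25 in males and -0.57 in females, and whether the list differed from the cholesterol enzymes was not tested. In WT livers 5 of the 15 were lower in males, compared with 2.11% of all genes, and the median of the 15 was -0.62. Among the 5 were the elongase Elovl6 (-1.44, adjusted p = 0.00359) and the lipase Pnpla3 (-3.60, adjusted p = 0.00609). The glycolytic enzyme Pklr (-1.05, adjusted p = 0.0115) and Acss2, which makes acetyl-CoA (-1.02, adjusted p = 0.0436), were also among them. Srebf1, which encodes SREBP1, had a KO minus WT difference of -0.62 in males (adjusted p = 0.619) and -1.25 in females (adjusted p = 0.17). Of 5 measured LXR targets 0 passed in KO males, with 1 at an unadjusted p under 0.05, and 0 in KO females, also 0 by the unadjusted p. Among 5 genes of cholesterol esterification and bile acid synthesis, Cyp8b1, the sterol 12-alpha-hydroxylase, rose in KO males (0.95, adjusted p = 0.0334). Between WT sexes Cyp7a1, the first step from cholesterol to bile acids, was lower in males (-1.79, adjusted p = 0.0273), and Cyp7b1, an oxysterol hydroxylase, was higher (3.60, adjusted p = 0.000411).

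Lists for feeding state, time of day and other cell types were read in the same way. In KO males the fasting list (7 of 10 genes measured) held 2 genes that rose, Igfbp1, an insulin-repressed binding protein (4.36, adjusted p = 0.0156), and Pdk4, a pyruvate dehydrogenase kinase (2.30, adjusted p = 0.0204), and 1 that fell, Ppargc1a, a coactivator of gluconeogenesis (adjusted p = 0.024), which was detected on 2 of 3 male KO arrays, at 14.5 to 24.3 against 43.8 to 65.0 in male WT livers. Of all genes 0.878% rose and 1.5% passed in either direction. The summed intensity of the fasting list was 5942 to 7716 in male WT and 7709 to 10667 in male KO livers. The sum of 9 measured clock genes was 4134 to 5276 in male WT and 5796 to 9309 in male KO livers. Of the 9, 0 passed, with 1 at an unadjusted p under 0.05, compared with 14.3% of all genes in either direction. Dbp alone had a mean of 2051 in male WT and 4819 in male KO livers, where the sum had means of 4567 and 7839. The stellate cell sum (6 of 7 markers) was 6914 to 7458 in male WT and 7679 to 8860 in male KO livers, and the blood and immune sum (5 of 11) 17680 to 19632 and 12837 to 16880. The endothelial sum (7 of 8) was 7190 to 8250 and 7378 to 8634, and the Kupffer sum (5 of 7) 3402 to 4418 and 3546 to 5422. In these 4 cell type lists 0 genes passed in KO males, and the median log2 differences were 0.08, 0.11, 0.04 and 0.23. At an unadjusted p under 0.05, 1 stellate marker was lower and 1 endothelial marker higher, and 14.3% of all genes passed in either direction. By mean in male WT livers, Dcn gave 5955 of the stellate sum of 7238 and Clec4g 6031 of the endothelial sum of 7633. Hba-a1 gave 17750 of the blood and immune sum of 18726. The stellate, endothelial and blood sums thus each mostly follow 1 gene. In male KO livers Hba-a1 and Cd3e had lower means, and the other blood and immune markers measured had higher ones. Between WT sexes the stellate and endothelial sums of the females, 8610 to 10352 and 8328 to 10318, lay above those of the males. Of 8 hepatocyte markers 1 passed, Alb, which was lower in WT males (-0.97, adjusted p = 0.0236). Of 7 endothelial markers 1 passed, Pecam1, also lower in WT males (-0.73, adjusted p = 0.0397). Of all genes 2.11% were lower. The median differences of the 2 lists were -0.32 and -0.28. In females the pancreas sum was the 1 sum whose KO range lay apart from the WT range, at 21382 to 30842 against 13922 to 19950. In males it was 20202 to 24471 in KO and 12449 to 13820 in WT livers. This sum is nearly all Amy2a5, an amylase, which rose in KO livers of both sexes (0.73 and 0.63, adjusted p = 0.0415 and 0.0177). The other measured pancreas marker of the 5 listed, Cela2a, an elastase, was not higher in KO livers. It read 34.5 to 51.4 in male WT, 9.93 to 33.3 in male KO, 13.4 to 38.3 in female WT and at most 13.7 in female KO livers, where it was detected on 0 of 5 arrays, and it did not pass in males (adjusted p = 0.275) or females (adjusted p = 0.0829). Of 5 cholangiocyte markers 4 have a probe, and only Sox9 was detected on at least 3 arrays, at 94.1 to 179 in male WT and 210 to 327 in male KO livers. Of 4 adipocyte markers 3 have a probe, and 0 were detected on at least 3 arrays. The part of feeding state, time of day or cell makeup in the differences of the cholesterol genes was not tested, and in bulk liver fewer cells of a type and less RNA per cell cannot be told apart.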

How the data were processed

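The deposited values are one intensity per probe and array on a linear scale for 45281 probes. The authors' core facility made them, and the submitters' notes name lumi, with no version. The background method and normalization are not given in the sources used here, and values below 0 (35.2 to 35.3% per array) and equal distributions show background subtraction and quantile normalization. Another table's 32 columns match no sample label and were not used, so the alternatives that need it were not run.

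Negative values were replaced by 0, and log2 was taken after adding 16. A probe was detected where it exceeded 3 times the background spread, the root mean square of all negative values on that array. A probe of 1 gene was kept if detected on at least 3 of the 16 arrays, and each of 9906 genes was represented by its brightest probe. Array totals are equal by normalization, so the number of arrays, 3 in each male group, limits precision. Nothing says that the animals came from separate litters, and p-values measure the spread between these arrays. Groups were compared by limma 3.58.1 (R 4.3.3) fitting the 4 group means on 16 arrays, with 12 residual and 4.03 prior degrees of freedom, and Benjamini-Hochberg adjustment over all genes. The fit was tested on simulated data. Correlations used Python 3.11.15 and NumPy 2.4.6. Since Fdft1 was not analysed here, there were 28 pairs and 7 enzymes rather than the numbers planned. Named genes are the members, list genes that passed (up to 4 per list and comparison), Insig1 and Srebf1, label checks and the 5 genes most like the enzymes. Outside this rule Cyp51, Dhcr7, Mvk, Sox9, Cela2a, Dcn, Clec4g, Hba-a1, Cd3e and Dbp were named after their values were seen. The members and lists were chosen with earlier results of these data known. Alternatives were the offset, the filter, the probe rule, the arrays fitted, array weights, a variance trend, centring and leaving out each array.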

Additional observations from a re-analysis of the deposited data

Results flagged for a closer look

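In Lss the array female WT 4, at an intensity of 1094, stood apart from the other 4 female WT arrays (575 to 642). Its gap to the nearest of them was 0.831 of the range of the group on the log2 scale, above the critical value of 0.71 for 5 arrays. It was the 1 such array among 22 groups tested, and chance marks about 5 in 100 groups. The same array had the highest Hsd17b7 and Srebf2 values of the female WT livers, 4553 and 144.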

How the results depend on the processing

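Leaving out each array in turn gave 3 to 7 members higher in KO males, 1 to 4 in KO females, 1 to 4 lower in WT males than in WT females, 0 in KO livers between the sexes and 0 for the interaction, and 0 to 2 correlated pairs. Over all genes, leaving out each array gave 74 to 192 in KO males, 160 to 240 in KO females and 169 to 398 between WT sexes. It gave 116 to 275 between KO sexes and 3 to 6 for the interaction. With only the arrays compared, 1 member passed between WT sexes (Sqle) and 1 in KO females (Idi1). Of all genes 171 and 137 passed there, against 368 and 235 in the main fit. Array weights gave 4 in KO females and 1 for the interaction. Over all genes they gave 291 and 39, against 235 and 6 in the main fit. With female WT 2 and 4 both left out (chosen after seeing the data), the counts were 2 between WT sexes and 1 in KO females. Over all genes they were 284 and 156. All arm means moved by less than the spread between arrays in every alternative. The cause of these changes was not tested.

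Same-numbered WT males and females had correlations of 0.0983, 0.261 and 0.0749. Pairs with unlike numbers had -0.444 to 0.566, so these values cannot tell whether the numbers pair the animals. With the replicate block over the 6 WT arrays numbered 1 to 3, 0 members passed, with Nsdhl at 0.0201. In the same 6 arrays without the block 0 passed as well, with Nsdhl at 0.0201, so fewer arrays were fitted there. Of all genes 75 passed with the block and 106 without it. The KO minus WT comparisons share no numbers, and KO males and KO females share only the number 6.

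Changes of sign were confined to differences that had not passed, with 1 exception. Srebf2 by its other probe (fitted after seeing the data) gave 0.20 between WT sexes, where the first probe passed, 0.25 in KO females and -0.16 for the interaction. In KO females Srebf2 was 0.0925 as the mean over probes, 0.0410 with array weights, 0.0117 without female WT 2 and 4, and -0.14 to 0.0032 without single arrays. Between KO sexes Srebf2 was -0.000469 with an offset of 50 and -0.0366 with array weights, and -0.0516 to 0.0707 without single arrays. Sqle there was -0.0146 with array weights, -0.0113 by its other probe and -0.19 to 0.32 without single arrays, Pmvk -0.0424 to 0.20 and Nsdhl -0.0045 to 0.27. Between WT sexes Idi1 was 0.36 with array weights, 0.0126 with centred arrays and -0.46 to 0.42 without single arrays, and Nsdhl 0.0451 with array weights and -0.14 to 0.0716. For the interaction, array weights gave -0.0376 for Idi1 and -0.0157 for Nsdhl.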
